A study of Mus musculus with 22 samples.

Results

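The Slit ligands and Robo receptors described here are the 6 genes Slit1, Slit2, Slit3, Robo1, Robo2 and Robo4, out of 48709 genes counted in each of 2 RNA-seq experiments on mouse heart ventricles. They were taken by gene symbol. Slit2 was chosen by its counts in this series, which were lower in Sav1 KO than in control libraries, so that its values in that comparison are a description and not a test. Ventricles came from E13.5 embryos, and every group carried Nkx2.5-Cre, which recombines floxed alleles in early cardiac precursors. In the first experiment, LIN9 wt and LIN9 KO ventricles were compared with 3 libraries each (6 libraries). Its labels give no Sav1 genotype. The second experiment held 12 libraries, 3 for each of LIN9 wt with Sav1 wt (the control), LIN9 KO with Sav1 wt (LIN9 KO), LIN9 wt with Sav1 KO (Sav1 KO) and LIN9 KO with Sav1 KO (double KO). The samples are labelled wild-type for Lin9 where the study's text describes heterozygous Lin9 fl/+ animals. Cre removes exon 7 of Lin9 and exon 3 of Sav1 in cells in which it was active, and cells outside this lineage keep both genes. LIN9 is a subunit of the MuvB core of the MMB complex, an activator of mitotic genes, and SAV1 is a scaffold protein of the Hippo kinases, which restrain the coactivator YAP.

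Slits are large secreted proteins that bind the immunoglobulin domains of Robo receptors on neighbouring or migrating cells. The pathway is best known for repelling axons at the midline of the nervous system, and in the embryonic heart it takes part in forming the membranous septum, the valves, the pericardium and the caval veins. Robo1, Robo2 and Robo3 share the long extracellular part of classical Robo receptors, whereas Robo4 is shorter and is found mainly in endothelial cells. Heparan sulfate proteoglycans such as glypicans and syndecans help Slit to bind its receptor, and srGAP proteins carry the signal to small GTPases of the cytoskeleton.

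The genes lie in large loci (GENCODE M21 annotation of GRCm38). Slit1 is at chr19:41600257-41743665 on the minus strand, Slit2 at chr5:47983138-48307733 and Slit3 at chr11:35121224-35708507, both on the plus strand. Robo1 (chr16:72308306-73046095, plus strand) and Robo2 (chr16:73891839-74411825, minus strand) are neighbours, and Robo4 (chr9:37401897-37415115, plus strand) lies next to Robo3 (chr9:37415669-37433246, minus strand). Introns of Slit2 and Slit3 on the same strand hold the microRNA genes Mir218-1 and Mir218-2. Of the annotated genes inside the 6 loci that the tables list, all 14 had 0 counts, and 97.3% of protein-coding genes inside another gene had 0 counts in all 18 libraries, against 14.3% of other protein-coding genes. Genes of this kind thus had almost no counts in these tables. No exon of the 6 genes overlaps an exon of another gene.

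For Slit2, which the Sav1 comparison turned on, and for Robo2 and Robo4, which had opposite signs in LIN9 KO ventricles, the sequence upstream of the annotated gene start is shown (RefSeq promoter table, GRCm38.p6), written 5′ to 3′ on the gene's strand, with the letters of a motif match in capitals.

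Slit2 chr5:47982905-47983137 (+ strand): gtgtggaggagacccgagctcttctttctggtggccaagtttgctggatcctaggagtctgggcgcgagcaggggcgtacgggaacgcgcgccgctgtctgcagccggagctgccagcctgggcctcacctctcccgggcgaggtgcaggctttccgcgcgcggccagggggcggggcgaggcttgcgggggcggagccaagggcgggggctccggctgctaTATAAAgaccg

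Robo2 chr16:74411826-74412075 (- strand): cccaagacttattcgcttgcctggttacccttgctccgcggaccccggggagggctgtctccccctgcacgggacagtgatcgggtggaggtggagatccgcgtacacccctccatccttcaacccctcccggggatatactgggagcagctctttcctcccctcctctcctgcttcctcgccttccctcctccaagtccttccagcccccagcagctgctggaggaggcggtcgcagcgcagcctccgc

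Robo4 chr9:37401722-37401896 (+ strand): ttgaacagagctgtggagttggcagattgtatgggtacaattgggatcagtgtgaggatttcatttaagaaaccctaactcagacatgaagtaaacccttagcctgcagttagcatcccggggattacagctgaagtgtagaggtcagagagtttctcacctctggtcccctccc

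The 250 bases before each RefSeq start were searched on both strands for the core letters of 3 kinds of site. For Slit2 and Robo4, these windows reach beyond the letters shown, which stop at the annotated gene start. GGAATG is the core of the site of TEAD factors, the DNA-binding partners of YAP. The CHR element, to which MuvB binds, has the core TTTGAA. The TATA box was searched as TATAAA. Entries were present for Slit2, Slit3, Robo1, Robo2 and Robo4. The Slit2 window held TATAAA, 23 to 28 bases before the RefSeq start, which 12.4% of 32851 windows of all genes also held. The TEAD core, in 12.6% of all windows, and the CHR core, in 16.0%, were not among the letters of the member windows. The Slit2 window had 69.6% GC and 25 CpG dinucleotides, and the Slit3 window 78.8% and 35, while the Robo4 window had 49.6% and 2, against medians of 52.4% and 6 over all windows. For Robo2 at the start shown, these were 65.6% and 14. Further RefSeq starts of Robo2 lie 680945 and 1035468 bases upstream of it, with 44.8% and 4 and with 53.2% and 8. The RefSeq start of Robo1 lies 354843 bases downstream of its annotated gene start.

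Total counts lay between 9485599 and 9615274 per library in the first experiment and between 2770741 and 2999877 in the second, so that 1 count stands for more CPM (counts per 1000000 TMM-normalized counts) in the second. Because Lin9 and Sav1 counts run over the whole gene and not over the deleted exon alone, they check the labels only in part. Lin9 stood at 25.6 CPM ± 4.19 (SD, n = 3) in LIN9 wt and 20.6 ± 1.21 in LIN9 KO ventricles of the first experiment, and at 26.8 ± 3.23 in control, 15.5 ± 2.38 in LIN9 KO, 25.4 ± 6.11 in Sav1 KO and 22.7 ± 3.85 in double KO ventricles of the second. Double KO libraries thus overlapped Sav1 KO libraries in Lin9, and values of the double KO group rest on its labels. In the first experiment, the closest LIN9 wt and LIN9 KO libraries were both at 21.4 CPM and the lower Lin9 was not called (log2 change -0.31, edgeR adjusted p = 0.130), whereas it was called in the second with Sav1 wt (-0.80, adjusted p = 0.00270). Sav1 stood at 57.5 ± 3.88 CPM in control against 40.7 ± 3.98 in Sav1 KO, and at 49.7 ± 2.29 in LIN9 KO against 42.3 ± 1.73 in double KO ventricles, with no overlap in either pair and no call (adjusted p = 0.318 and 0.464). The label of ventricular heart was checked on marker genes. Markers of cardiomyocytes summed to between 8240 and 24300 CPM and ventricular ones to between 1340 and 5500 CPM in every library, with Actc1, which lies inside another gene, at 0. Markers of atrial cardiomyocytes, some of which embryonic ventricles also express, summed to between 2790 and 5050 CPM. Nothing in the labels says whether libraries of a group came from separate embryos, litters or pools. The study's methods give RNA isolated in triplicate, and a caption describes biological replicates of the LIN9 comparison as each done in triplicate. P-values thus measure the spread between these libraries.

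Slit2 was the most abundant of the ligands and Robo1 of the receptors in each of the 6 groups, per length of the longest coding transcript. On this scale, Slit2 stood at 28.2 CPM per kb ± 3.30 (SD, n = 3) in control ventricles of the second experiment, Robo1 at 13.3 ± 0.923, Slit3 at 7.16 ± 0.496, Robo2 at 3.81 ± 1.46, Robo4 at 3.07 ± 0.264 and Slit1 at 0.100 ± 0.0362. All neighbours in this order were apart in every library except Robo2 and Robo4, which overlapped. In LIN9 wt ventricles of the first experiment the order was Slit2 at 22.8 ± 3.88 CPM per kb, Robo1 at 11.5 ± 2.34, Slit3 at 5.52 ± 0.621, Robo4 at 2.80 ± 0.171, Robo2 at 1.83 ± 0.477 and Slit1 at 0.0980 ± 0.0291, with no neighbours overlapping. With all exonic bases of a gene as its length, Slit2 still led in the controls of the second experiment with 11.0 CPM per kb, but Slit3 (6.17) and Robo1 (6.07) came level and Robo4 (2.87) stood above Robo2 (1.93). With that length, Slit3 stood at or above Slit2 in LIN9 KO ventricles, at 7.79 against 7.30 CPM per kb in the first experiment and 11.9 against 11.3 in the second, and in double KO ventricles at 12.9 against 12.1. In LIN9 KO and double KO ventricles of the second experiment, Slit3 reached the range of Robo1, at 13.8 ± 3.82 against 15.7 ± 1.45 and 15.0 ± 4.52 against 15.8 ± 2.97 CPM per kb.

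**Figure D1:**
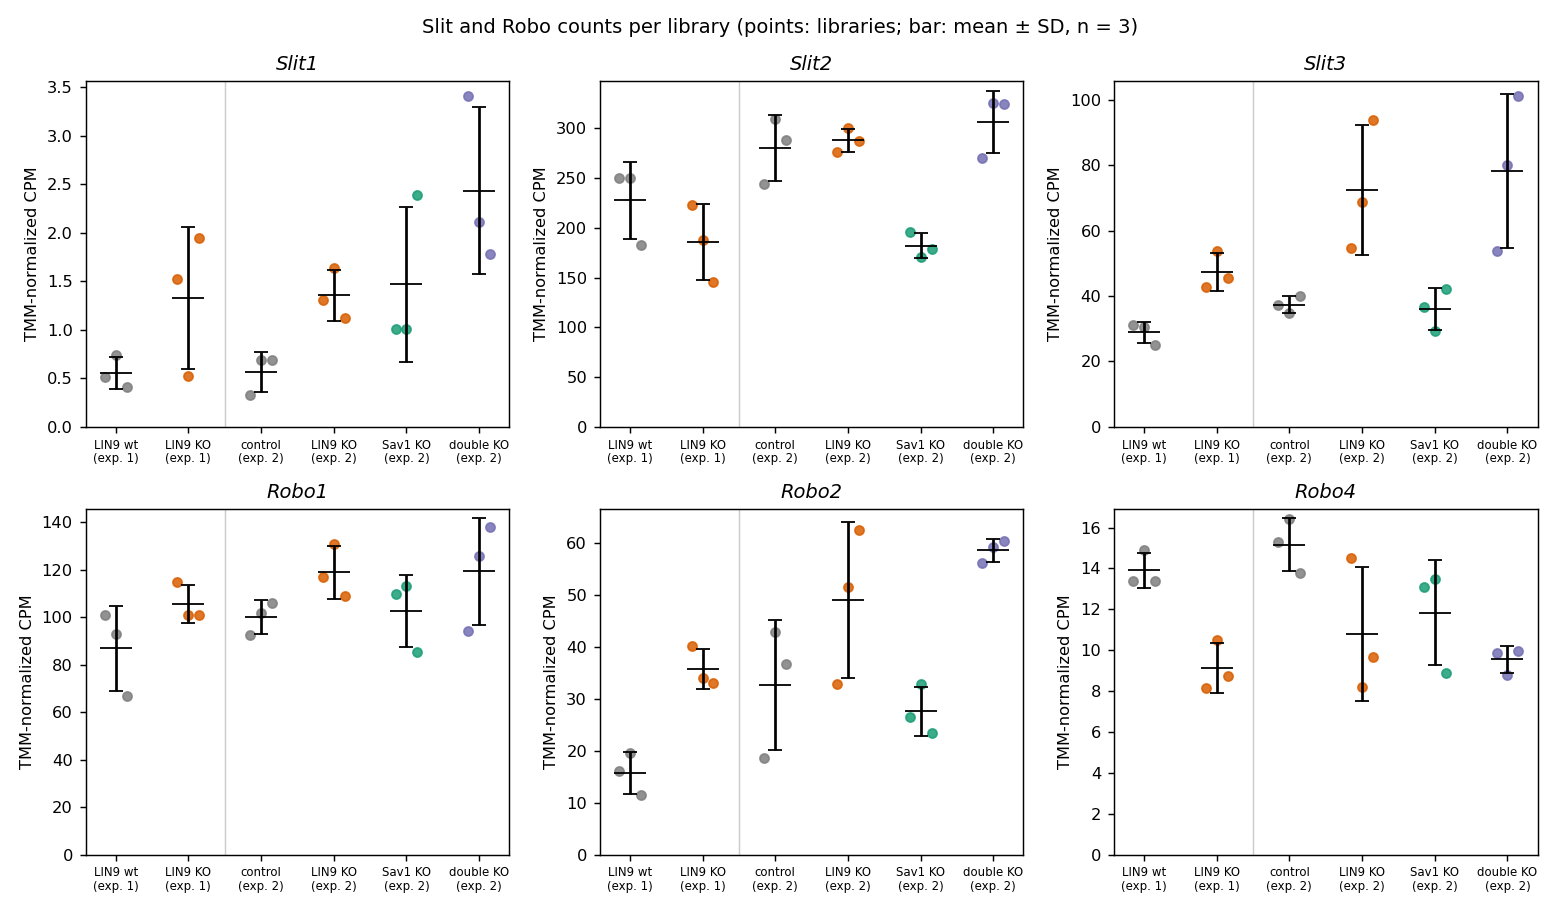
TMM-normalized CPM of Slit1, Slit2, Slit3, Robo1, Robo2 and Robo4 in the 18 libraries, by genotype and experiment (exp. 1, first; exp. 2, second). Points are libraries and bars are mean ± SD of 3 libraries. Slit2 lies at 171 to 196 CPM in Sav1 KO libraries and at 244 CPM or above in the other groups of the second experiment, and Slit3 lies above its reference in all LIN9 KO and double KO libraries.

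Slit2 encodes the ligand with the highest counts and was chosen for its level in Sav1 KO ventricles. In the second experiment it was at 244, 309 and 288 CPM in the control libraries and at 196, 171 and 179 CPM in Sav1 KO libraries. In LIN9 KO libraries it was at 276, 300 and 287 CPM, and in double KO libraries at 270, 325 and 324 CPM. All Sav1 KO libraries were thus below all others of this experiment, and the control, LIN9 KO and double KO libraries overlapped. The fitted log2 change in Sav1 KO against control was -0.63 (SE 0.10), which chose the gene and is given without a test. Over all genes, edgeR's quasi-likelihood test called 3 of 17675 (0.017%) in this comparison at an adjusted p under 0.05.

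The same change of Sav1 genotype in the LIN9 KO background compares groups other than those that chose Slit2, although the fit took its spread from all 12 libraries. There its log2 change was 0.091 (SE 0.10, 95% interval -0.11 to 0.29, edgeR adjusted p = 0.774), and the libraries of LIN9 KO and double KO overlapped. A fit of these 6 libraries alone gave 0.11 (adjusted p = 0.830). The difference between both Sav1 effects was 0.72 on the log2 scale (SE 0.15). It contains the choosing comparison and is given without a test. Loss of Lin9 likewise left Slit2 at 0.038 (SE 0.10) with Sav1 wt, whereas it stood 0.76 (SE 0.10) above the Sav1 KO libraries when Lin9 was lost in addition. Both of these share libraries with the comparison that chose the gene, so no test is given.

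The first experiment played no part in the choice. Slit2 was at 250, 250 and 183 CPM in LIN9 wt and at 223, 188 and 146 CPM in LIN9 KO libraries, and these ranges overlapped. Its log2 change was -0.29 (SE 0.16, edgeR adjusted p = 0.248), so that a change was not called in either direction. LIN9 wt replicate 3, at 183 CPM, lay below all but 1 of the LIN9 KO libraries. The difference ran from -0.14 without LIN9 KO replicate 3 to -0.44 without LIN9 KO replicate 1, with no call in any fit that left out 1 library. A fit with a block for replicate number called the lower Slit2 (-0.30, edgeR adjusted p = 0.0161).

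Marker lists were read in the same libraries, since ventricles hold several cell types and in bulk RNA fewer cells of a type cannot be told apart from less RNA per cell. Between Sav1 KO and control, none of the genes in any marker list was called. The summed level of 12 endothelial and endocardial markers was 1260 to 1350 CPM in Sav1 KO and 1440 to 1470 CPM in control libraries, and that of 7 smooth muscle and pericyte markers was 1830 to 1880 against 1580 to 1650 CPM. The sum of 10 epicardial markers was 291 to 338 against 338 to 341 CPM and that of 10 cushion mesenchyme and fibroblast markers 3200 to 3840 against 3260 to 3520 CPM. Cardiomyocyte markers summed to 23400 to 24300 against 20600 to 22300 CPM and 8 erythroid markers to 1270 to 1690 against 1760 to 2250 CPM. The sums of the endothelial, smooth muscle, cardiomyocyte and erythroid lists were thus apart between these groups. Median log2 changes of their genes were -0.15, -0.0037, 0.12 and -0.49. In the smooth muscle list 3 of 7 changes were above 0, with Acta2 at 0.39 and Tagln at -0.07. Sums of macrophage markers (94.2 to 115 against 113 to 122 CPM) and of the ventricular and atrial lists overlapped. The part of these differences in the Slit2 values was not tested.

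Slit3, the other ligand with substantial counts, rose in LIN9 KO ventricles of both experiments. In the first experiment it was at 31.1, 30.4 and 25.1 CPM in LIN9 wt and at 42.6, 53.8 and 45.4 CPM in LIN9 KO libraries. In the second it was at 37.2, 34.9 and 40.1 CPM in control and at 54.6, 68.6 and 93.9 CPM in LIN9 KO libraries. Knockout libraries were above their reference without overlap in both, and those of the second experiment were spread more widely. The log2 change was 0.71 (SE 0.12, edgeR adjusted p = 0.000772) in the first and 0.94 (SE 0.26, adjusted p = 0.0234) in the second experiment. In the second, the call was lost without control replicate 1, 2 or 3 (adjusted p = 0.0841, 0.0953 and 0.0563). It was also lost without LIN9 KO replicate 2 (adjusted p = 0.0637). The log2 changes of these fits were 0.93, 0.87, 1.00 and 0.95. Without LIN9 KO replicate 3 the log2 change was 0.69 and was called (adjusted p = 0.0338).

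On Sav1 loss, Slit3 showed no such difference. It was at 36.7, 29.4 and 42.0 CPM in Sav1 KO libraries, which overlapped the control, with a log2 difference of -0.056 (SE 0.27). In double KO libraries it was at 53.9, 79.9 and 101 CPM, which overlapped LIN9 KO, with a difference of 0.12 (SE 0.24, 95% interval -0.36 to 0.59, adjusted p = 0.895). Against Sav1 KO, the double KO was higher by 1.12 (SE 0.26, edgeR adjusted p = 0.0102). Slit3 thus rose on Lin9 loss in each Sav1 background, and the interaction of 0.17 (SE 0.37, adjusted p = 0.961) was not called.

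Slit1, a ligand of the nervous system, was near the limit of counting. Its counts were 5, 7 and 4 in LIN9 wt and 14, 5 and 19 in LIN9 KO libraries of the first experiment. They were 1, 2 and 2 in control, 4, 5 and 3 in LIN9 KO, 3, 3 and 7 in Sav1 KO and 10, 6 and 5 in double KO libraries of the second. Each knockout group thus held more counts than its reference, with overlap in the first experiment and between Sav1 KO and double KO, and a shared count of 5 between LIN9 KO and double KO. Summed over libraries and scaled by library size, the ratio of LIN9 KO to LIN9 wt was 2.40 (exact 95% interval 1.31 to 4.61, counting error only) in the first experiment and that of LIN9 KO to control 2.41 (0.791 to 8.74) in the second. The edgeR adjusted p-values of these differences were 0.0928 and 0.240. Without LIN9 KO replicate 2 of the first experiment, which held 5 counts, the first was called (adjusted p = 0.0165), as it was with no filter on low counts (adjusted p = 0.0488).

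**Figure D2:**
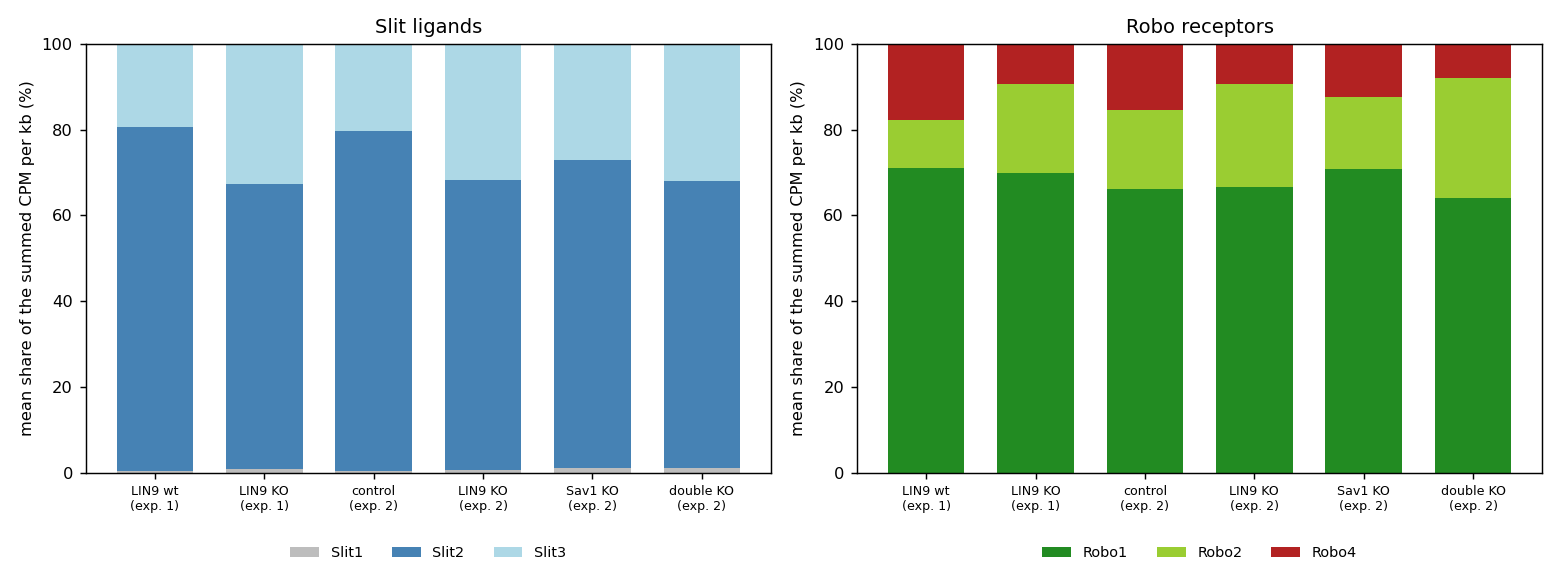
Mean share of each gene in the summed CPM per kb of longest coding transcript of the Slit ligands (left) and of the Robo receptors (right), in percent, by group (n = 3). Slit2 takes 79.4% of the ligand sum in the control and 67.6% in LIN9 KO ventricles of the second experiment, and Robo2 takes a higher mean share of the receptor sum in each group with LIN9 KO than in its reference.

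The make-up of the ligands followed from these levels. Slit3 made up 19.5% ± 1.02 (SD, n = 3) of the summed ligand level per kb in LIN9 wt and 32.8% ± 5.52 in LIN9 KO ventricles of the first experiment. In the second, it made up 20.3% ± 2.46 in control, 31.9% ± 5.71 in LIN9 KO, 27.0% ± 3.06 in Sav1 KO and 31.9% ± 4.97 in double KO ventricles. The Slit3 share of each knockout group was above that of its control in every library. In LIN9 KO this went with a higher Slit3, and in Sav1 KO with a lower Slit2, with the order of the ligands unchanged on this length. Mean Slit2 was also lower in LIN9 KO of the first experiment (18.7 against 22.8 CPM per kb), with overlap and no call in the main fit.

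Robo1, the receptor with the highest counts, was slightly above its reference in LIN9 KO ventricles, without a call. It was at 101, 93.1 and 66.8 CPM in LIN9 wt and at 115, 101 and 101 CPM in LIN9 KO libraries of the first experiment, and at 92.4, 102 and 106 CPM in control and 117, 131 and 109 CPM in LIN9 KO libraries of the second. Sav1 KO libraries were at 110, 113 and 85.3 CPM and double KO libraries at 94.4, 126 and 138 CPM. The log2 differences on Lin9 loss were 0.29 (SE 0.14, edgeR adjusted p = 0.161), 0.25 (SE 0.13, adjusted p = 0.187) and, with Sav1 KO, 0.22 (SE 0.13, adjusted p = 0.245), and none was called. With 1 library left out they ran from 0.13 to 0.40, from 0.14 to 0.29 and from 0.081 to 0.33, with no call. A fit with a block for replicate number called the difference of the first experiment (0.30, adjusted p = 0.0295). LIN9 KO libraries lay above their reference without overlap in the first experiment, where the closest libraries both rounded to 101 CPM and the 95% interval was 0.02 to 0.55, and in the second with Sav1 wt (-0.01 to 0.50), while double KO libraries overlapped Sav1 KO (-0.04 to 0.47). On Sav1 loss they were 0.036 (SE 0.13) with LIN9 wt and 0.0067 (SE 0.13, 95% interval -0.24 to 0.26, adjusted p = 0.993) with LIN9 KO.

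Robo2, a classical receptor that often acts beside Robo1, had the greatest fitted rise of the well-counted members in the first experiment. It was at 16.1, 19.6 and 11.4 CPM in LIN9 wt and at 40.1, 34.1 and 33.0 CPM in LIN9 KO libraries, with no overlap. The log2 change was 1.19 (SE 0.17, edgeR adjusted p = 0.000201). In the second experiment, control libraries were at 18.6, 42.8 and 36.7 CPM and LIN9 KO libraries at 32.9, 51.5 and 62.6 CPM. These overlapped, as replicate 1 was low in both groups, and the log2 difference of 0.58 (SE 0.30, adjusted p = 0.212) was not called. A fit with a block for replicate number called it (0.59, adjusted p = 0.0483), as did the fit without LIN9 KO replicate 1 (0.79, adjusted p = 0.0260) and the fit with no filter on low counts (0.57, adjusted p = 0.0252). Without control replicate 1 it was 0.28 (adjusted p = 0.402) and without LIN9 KO replicate 3 it was 0.34 (adjusted p = 0.485), and leaving out any other library gave 0.51 to 0.79 with no call. The fit of these 6 libraries alone gave 0.55 (adjusted p = 0.432).

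In the Sav1 KO background, Robo2 rose again. It was at 26.6, 32.8 and 23.5 CPM in Sav1 KO and at 56.2, 59.2 and 60.5 CPM in double KO libraries, with a log2 change of 1.08 (SE 0.30, edgeR adjusted p = 0.0266). The groups were far apart, yet the call was lost in 5 of 6 fits that left out 1 of these libraries, all but Sav1 KO replicate 2, with adjusted p up to 0.0907. Over these 6 fits the log2 change ran from 0.98 to 1.22. On Sav1 loss alone the log2 difference was -0.24 (SE 0.32) with LIN9 wt and 0.26 (SE 0.28, 95% interval -0.29 to 0.82, adjusted p = 0.762) with LIN9 KO. With 1 library left out these ran from -0.52 to -0.0088 and from 0.048 to 0.47. Neither the interaction (0.50, SE 0.42, adjusted p = 0.890) nor the difference between the experiments (-0.61, SE 0.38, adjusted p = 0.932) was called. Robo2 made up 11.2% ± 1.49 (SD, n = 3) of the summed receptor level per kb in LIN9 wt and 20.8% ± 0.788 in LIN9 KO ventricles of the first experiment. In the second experiment its share overlapped between control (12.4% to 22.9%) and LIN9 KO libraries (17.2% to 30.8%), and was apart between Sav1 KO (15.3% to 17.8%) and double KO libraries (25.8% to 31.1%).

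Robo4, the endothelial receptor, fell in LIN9 KO ventricles of the first experiment. It was at 13.4, 14.9 and 13.4 CPM in LIN9 wt and at 8.13, 10.5 and 8.74 CPM in LIN9 KO libraries. No library overlapped, and the log2 change was -0.60 (SE 0.16, edgeR adjusted p = 0.0114). The call was lost without LIN9 wt replicate 2 (adjusted p = 0.0539) or LIN9 KO replicate 1 (adjusted p = 0.0550). In the second experiment Robo4 was at 15.3, 16.4 and 13.8 CPM in control and at 14.5, 8.20 and 9.69 CPM in LIN9 KO libraries, where replicate 1 of LIN9 KO lay within the control range. The log2 difference of -0.49 (SE 0.23, adjusted p = 0.125) was not called, and without that library it was (-0.78, adjusted p = 0.0187). Without LIN9 KO replicate 2 it was -0.35 (adjusted p = 0.361), and the other 4 fits that left out 1 library gave no call either (-0.55 to -0.45).

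Sav1 KO libraries held 39, 40 and 26 counts of Robo4 (11.8 CPM ± 2.57, SD, n = 3), all below the control in CPM, with a log2 difference of -0.36 (SE 0.22). Double KO libraries had 9.88, 8.80 and 9.96 CPM. They overlapped both the Sav1 KO libraries (-0.31, SE 0.24, adjusted p = 0.390) and the LIN9 KO libraries (-0.18, SE 0.24, adjusted p = 0.821). Robo4 counts were between 25 and 48 per library in this experiment, which limits its precision. Endothelial markers went in both directions on Lin9 loss. In the first experiment LIN9 KO ventricles had 4 of 12 endothelial and endocardial markers called higher and 1 lower (median log2 change 0.084), and their sum was 1600 to 2010 against 1320 to 1660 CPM, which overlapped. The sums of the second experiment were apart and higher on Lin9 loss, at 1580 to 1840 against 1440 to 1470 CPM with Sav1 wt and 1440 to 1700 against 1260 to 1350 CPM with Sav1 KO. There, 4 were called higher and 1 lower with Sav1 wt (median 0.19), and 6 and 2 with Sav1 KO (0.26). The junction gene Cldn5 was called lower in the first experiment and with Sav1 KO (-0.57 and -1.13, adjusted p = 0.0378 and 0.00502), and the VEGF receptor gene Kdr in both comparisons of the second (-0.83 and -0.67, adjusted p = 1.45e-05 and 0.000204). The adhesion gene Pecam1 was called higher in all 3 (0.63, 0.56 and 0.64, adjusted p = 0.00294, 0.000248 and 6.34e-05). So were Emcn (0.75, 0.72 and 0.98), Eng (0.47, 0.54 and 0.50) and Nfatc1 (0.41, 0.49 and 0.52). The part of these markers in the Robo4 values was not tested.

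**Figure D3:**
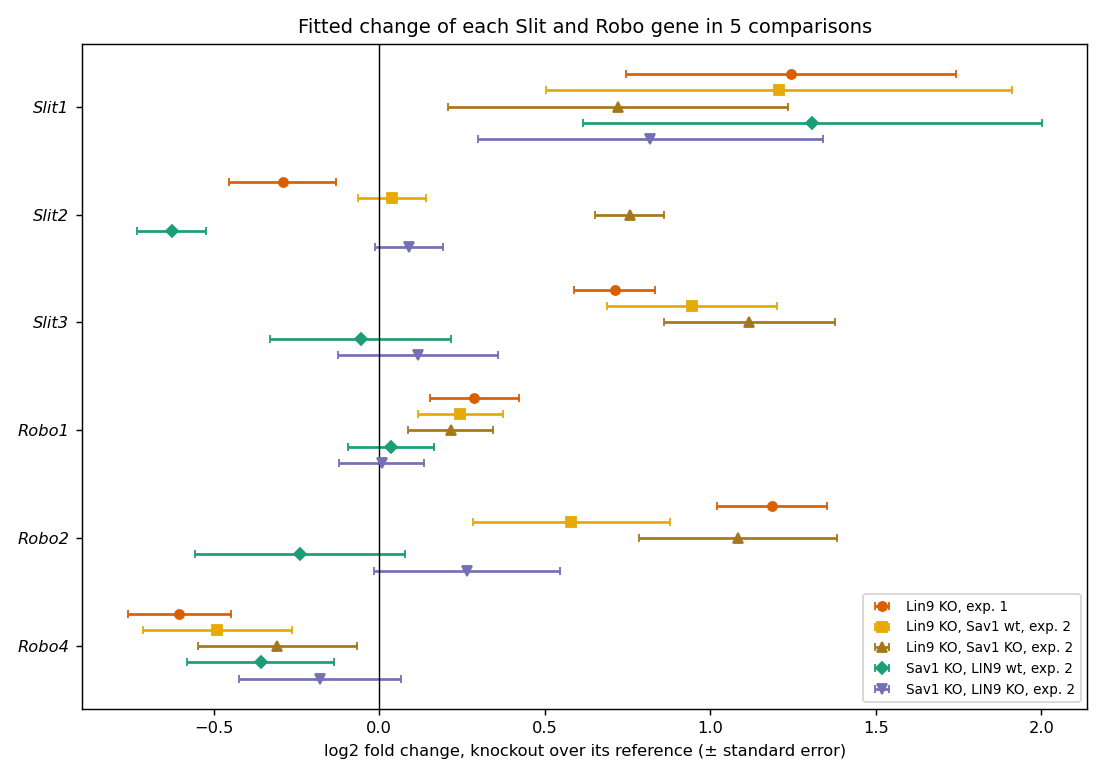
Fitted log2 fold change (± standard error) of each gene in 5 comparisons, with the knockout over its reference. Slit3 and Robo2 lie above 0 and Robo4 below 0 in all 3 comparisons of Lin9 genotype, and Slit2 lies at -0.63 in Sav1 KO with LIN9 wt, the comparison that chose it, and near 0 in Sav1 KO with LIN9 KO.

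Counted over the genes for which a test is given, 3 of 6 members were called in LIN9 KO ventricles of the first experiment, where 20.9% of all tested genes were called (11.1% higher and 9.78% lower). All 6 members had passed the filter on low counts in both experiments. In the second experiment, 1 of 5 members without Slit2 was called on Lin9 loss with Sav1 wt (23.2% of all genes) and 2 of 5 with Sav1 KO (23.4%). On Sav1 loss in the LIN9 KO background none of 6 was called by edgeR or DESeq2 and none had an unadjusted p under 0.05 in edgeR, where 0.0113% of all genes were called and 11.8% had such an unadjusted p. In the interaction and in the difference between experiments, none of 5 members was called by edgeR or DESeq2 or had an unadjusted p under 0.05 in edgeR. Over all genes, 0% were called in either, and 6.54% and 5.72% had an unadjusted p under 0.05. The second experiment's Lin9 comparisons with Sav1 wt and Sav1 KO share no libraries with each other or with the first, but its Sav1 KO and LIN9 KO groups are compared with the same controls.

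The pattern of the other cell types moved with the Lin9 genotype as well. In LIN9 KO ventricles 9 of 10 epicardial markers were called higher in the first experiment (median log2 change 1.11), in the second with Sav1 wt (1.18) and with Sav1 KO (1.10). Of 10 cushion mesenchyme and fibroblast markers, 9, 9 and 10 were called higher, with medians of 1.08, 0.89 and 0.84. Of 9 cardiomyocyte markers tested, 6 were called lower in each of these comparisons, with medians of -0.80, -0.76 and -0.74, while the medians over all genes were 0.016, 0.0086 and 0.032. Ventricular markers were called lower in 5, 4 and 5 of 5 (medians -1.04, -0.85 and -1.20). Atrial sums were apart and higher, at 4060 to 5050 against 3050 to 3930 CPM, 3870 to 4600 against 2970 to 3430 CPM and 3610 to 4120 against 2790 to 3220 CPM, with 1, 2 and 2 of 6 markers called higher and none lower. The medians of this list were 0.25, 0.22 and -0.0048. Nppa was called in each (1.59, 1.75 and 2.04) and Sln in the second experiment, while Myl4 was at 0.02, -0.12 and -0.10. Of 7 smooth muscle and pericyte markers 2 were called higher in each and 1, 1 and 2 lower, and their sums were apart in the first experiment (2210 to 2440 against 1590 to 1830 CPM) and overlapped in the second. All 7 erythroid markers tested were called higher in each, and 6, 5 and 6 of 7 macrophage markers were. Median log2 changes were 2.86, 2.80 and 2.97 for the erythroid and 1.01, 0.92 and 1.26 for the macrophage list. Slit3 and Robo2 moved in the direction of the epicardial and mesenchymal lists, which was also that of the macrophage and erythroid lists. The part of these lists in their values was not tested.

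**Figure D4:**
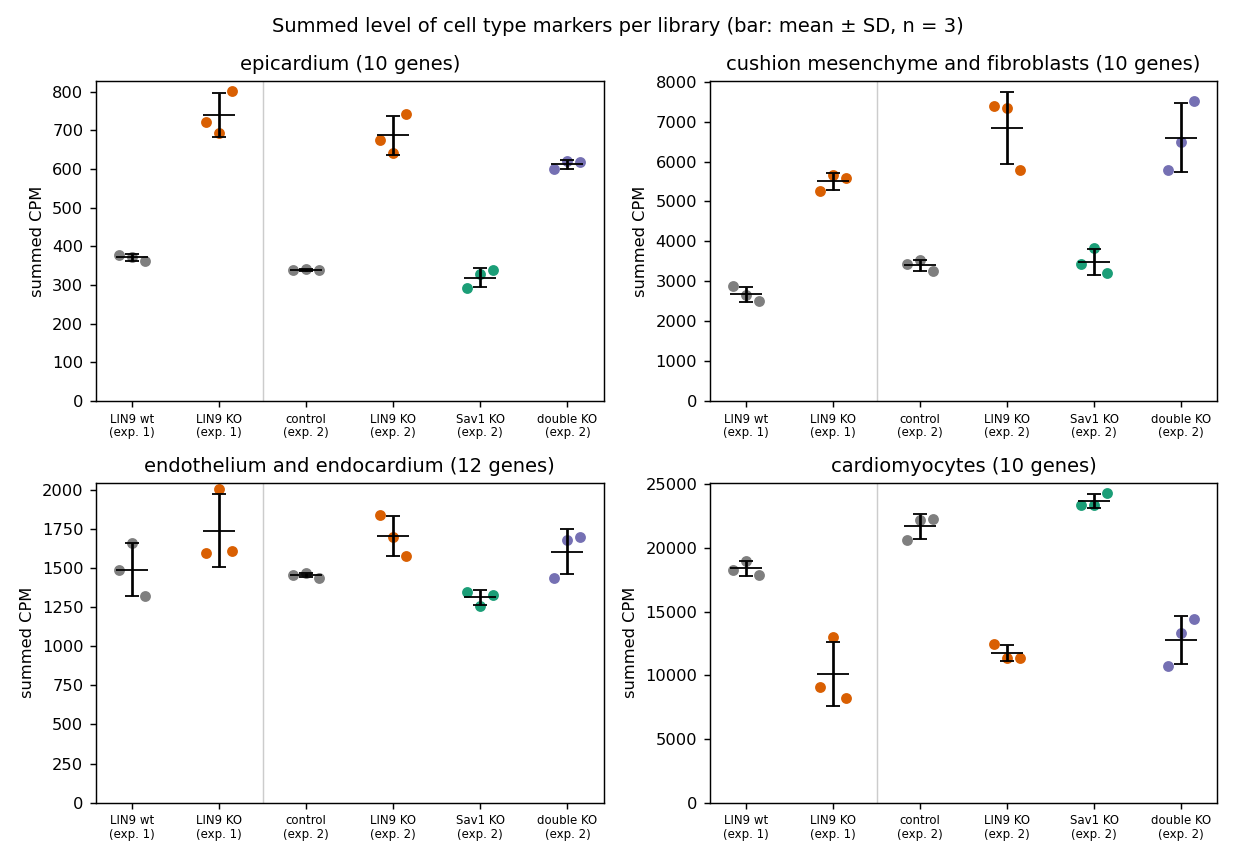
Summed CPM of marker genes of epicardium, cushion mesenchyme and fibroblasts, endothelium and endocardium, and cardiomyocytes in each library, by genotype and experiment. Points are libraries and bars are mean ± SD of 3 libraries. Epicardial and mesenchymal sums are higher and cardiomyocyte sums lower in all LIN9 KO and double KO libraries than in their references.

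Other genes of the pathway were read from a list of 41, of which 40 were tested. In LIN9 KO ventricles of the first experiment 8 were called higher and 3 lower, in the second experiment with Sav1 wt 6 and 1, and with Sav1 KO 8 and 3. These are 27.5%, 17.5% and 27.5% of the list, near the 20.9%, 23.2% and 23.4% called over all genes, so that the values below describe single genes. Their median log2 changes of 0.049, 0.046 and 0.022 were close to those over all genes. None was called in either Sav1 comparison, the interaction or the difference between experiments by edgeR.

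Among proteoglycans that bind Slit, Sdc4 had log2 changes on Lin9 loss of 0.96, 1.43 and 1.17 in these 3 comparisons (edgeR adjusted p = 0.000302, 1.44e-08 and 8.83e-07), and Sdc3 of 0.58, 0.83 and 0.80 (adjusted p = 0.00127, 6.42e-06 and 1.35e-05). Gpc4 was called in both comparisons of the second experiment (0.54 and 0.61, adjusted p = 0.00265 and 0.000832). The glypican Gpc1 had the opposite sign, with -0.47 in the first experiment and -0.70 with Sav1 KO (adjusted p = 0.00940 and 3.09e-05). With Sav1 KO, Ext1, which builds heparan sulfate chains, was at 0.42 (adjusted p = 0.00535) and Dag1, the dystroglycan that binds Slit, at -0.42 (adjusted p = 0.0449). The syndecans Sdc1 and Sdc2 and the Robo-binding Flrt2 were not called in any comparison of Lin9 genotype, with log2 differences between -0.17 and 0.25.

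Of the intracellular mediators, Srgap2 was at 0.36, 0.38 and 0.58 (adjusted p = 0.0148, 0.00875 and 0.000181) and Srgap3 at 0.61, 1.07 and 0.71 (adjusted p = 0.0202, 0.00686 and 0.0458), so both srGAPs rose in all 3 comparisons, whereas Srgap1 was not called in any of them. Usp33, a deubiquitinase that binds Robo1, was called in the first experiment and with Sav1 KO (0.36 and 0.46, adjusted p = 0.0437 and 0.0168). Pak1, a kinase downstream of Rac and Cdc42, was called in the first (0.83, adjusted p = 0.00117). Cap2, an actin regulator of muscle, fell in all 3 (-0.48, -0.61 and -0.75, adjusted p = 0.00901, 2.61e-05 and 1.39e-06). The GTPases Rac1, Cdc42 and Rhoa themselves were not called.

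Netrin receptors can interact with Robo proteins. Unc5b, an endothelial guidance receptor gene, rose by 0.81, 0.77 and 0.51 (edgeR adjusted p = 0.000419, 4.16e-06 and 0.000828), and the ligand gene Ntn1 fell in the first experiment (-0.77, adjusted p = 0.000277) but was at -0.01 in the second with Sav1 wt, a difference between experiments of 0.76 (SE 0.25) that was not called (adjusted p = 0.829). With Sav1 KO, Ntn1 was at 0.07, and the netrin receptor gene Dcc was not called in any of the 3 comparisons (0.07, -0.03 and 0.51). Robo3, the remaining Robo gene, had 13 counts or fewer in every library. It was called in the first experiment (2.43, SE 0.75, adjusted p = 0.0314) on counts of 1, 2 and 1 in LIN9 wt against 2, 8 and 13 in LIN9 KO.

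As a description of co-variation, the log2 CPM of each gene was correlated with all 12397 genes of at least 5 CPM over the 12 libraries of the second experiment, which share genotypes, and again over the 6 of the first. Robo2 was most like Vcan (r = 0.973), the versican of cushion matrix, Dlg2 (0.966) and Meis2 (0.965), and with these its r in the first experiment was 0.914, 0.878 and 0.911. Slit3 was most like Mcu (0.959), Ptprm (0.956) and Syne2 (0.945), with 0.943, 0.967 and 0.964 in the first. The nearest genes of Slit2 were Adgrg6 (0.943), an adhesion G protein-coupled receptor gene, Akna (0.902) and Col23a1 (0.894), for which r was 0.688, -0.701 and -0.391 in the first experiment. The correlations of Slit2 over the 12 libraries include the Sav1 KO libraries for which it was chosen. For Robo4 these were Clns1a (0.891), Cldnd1 (0.881) and Cct2 (0.879), with 0.134, 0.306 and -0.187 in the first, for Robo1 D930015E06Rik (0.893), Myh9 (0.884) and Cyp4f16 (0.879), with 0.388, 0.589 and 0.819 in the first, and for Slit1, on few counts, Wls (0.872), Fam72a (0.863) and Plscr2 (0.857), with 0.475, 0.551 and 0.553. Between members, Slit3 and Robo2 had r = 0.921 over the 6 libraries and 0.757 over the 12, and Robo2 and Robo4 -0.851 and -0.528.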

How the data were processed

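Polyadenylated RNA of E13.5 ventricles was sequenced by the authors, who mapped reads with TopHat2 (2.1.0) and Bowtie2 at default settings to mm10, reduced each sample to the smallest number of mappable reads and counted reads per Ensembl gene (GRCm38.p6) with summarizeOverlaps. Overlap mode and strandedness are not given in the sources used here. The deposited values used are these counts. Deposited tables of the authors' own comparisons (log2 fold change, p-value, FDR) were not used. No column of values was without a sample (0 columns), and 4 identifiers repeated with identical counts were kept once per table. ChIP-seq samples were not analysed here.

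After TMM normalization, the quasi-likelihood test of edgeR (4.0.16, R 4.3.3, robust estimates) was run on the counts of the 19752 genes of the first and 17675 of the second experiment with a mean count above 1 (18737 for the comparison of experiments, fitted on 18 libraries), with Benjamini-Hochberg adjustment over all of them and a threshold of 0.05. In the second experiment 12 libraries shared 1 fit with 4 group means. CPM used TMM library sizes, and log2 CPM a prior count of 2. Intervals of log2 changes are 95% normal intervals from the SE. The edgeR fits were tested on simulated data. Of the marker lists, 1 is not reported here. The members and lists were chosen with earlier results of these data known. Named were the members, Lin9, Sav1, pathway genes past the threshold in any comparison and the 3 genes most correlated with each member. Genes under discussion for their absence of a call (Srgap1, Rac1, Cdc42, Rhoa, Sdc1, Sdc2, Flrt2, Dcc) and endothelial markers given with values were chosen after their values were seen. Alternatives were RLE size factors, DESeq2 (1.42.0), no filter, filterByExpr, a replicate block, pair-only fits and leaving out each library. Same-numbered libraries deviated together (r over 0.1 for every pair, genes of at least 5 CPM) between control and LIN9 KO (0.257 to 0.637) and between control and Sav1 KO (0.102 to 0.330), not in the first experiment (0.0576 to 0.285) or with double KO. This pairing comes from the data alone, and over all tested genes no comparison met it.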

Additional observations from a re-analysis of the deposited data

Results flagged for a closer look

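Slit2 had opposite signs on Lin9 loss in the Sav1 KO background and in the first experiment. Every double KO library was above the Sav1 KO libraries of the second experiment (log2 change 0.76), whereas every LIN9 KO library of the first experiment was below the mean of its LIN9 wt libraries (-0.29). With Sav1 wt, the Lin9 difference of the second experiment was 0.038 (SE 0.10). The -0.29 was not called in the main fit, ran from -0.44 to -0.14 with 1 library left out, and came from overlapping groups. With a replicate block it was called (-0.30, edgeR adjusted p = 0.0161). The first 2 effects are 1.05 apart on the log2 scale. This difference was not tested, and the Sav1 KO libraries are those for which Slit2 was chosen. These comparisons also differ in labelled Sav1 genotype, which the first experiment's labels do not give.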

How the results depend on the processing

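Among the values other than counts of calls, 219 of 227 were kept under another setting, and 282 of 324 with 1 library left out, where 28 changed sign. A value was kept if its direction held and, where a test is given, its side of the threshold. Values given without a test had to stay within 1 SE of the main value. Of the members called on Lin9 loss, the replicate block gave 5 in the first experiment, adding Slit2 (-0.30, adjusted p = 0.0161) and Robo1 (0.30, adjusted p = 0.0295). Labels do not say what same-numbered libraries share, and in the first experiment their deviations correlated at 0.285, 0.0576 and 0.251. No filter gave 4 there, adding Slit1 (1.24, adjusted p = 0.0488), and 2 in the second experiment with Sav1 wt, as did the replicate block, with Robo2 added in both. Leaving out 1 library gave 0 to 3 in the second experiment with Sav1 wt and 1 to 2 with Sav1 KO. Over all genes, Sav1 loss with LIN9 wt gave 22 calls with no filter, 31 with the 6 libraries alone and 0 to 2 with 1 library left out (2 without control replicate 1). Sav1 loss with LIN9 KO gave 46 with DESeq2, 309 with no filter, 84 with the replicate block, 0 with filterByExpr, 0 with the 6 libraries alone and 0 to 378 with 1 library left out (378 without LIN9 KO replicate 3, and 15 or fewer without any other). The interaction gave 17 with no filter and 0 to 64 with 1 left out (64 without LIN9 KO replicate 3), the difference between experiments 1 with the replicate block and 0 to 1, and Lin9 loss in the first experiment 2722 (without LIN9 wt replicate 3) to 4223. The causes were not tested. The block changed no other call of a member.

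Where a test is given, log2 differences that changed sign had been called in no setting. With 1 library left out, Sav1 loss with LIN9 KO gave -0.10 to 0.34 for Slit3, -0.11 to 0.14 for Robo1 and -0.33 to 0.11 for Robo4. Of the values given without a test, Sav1 loss with LIN9 wt gave -0.18 to 0.063 for Slit3 and -0.044 to 0.15 for Robo1, and Lin9 loss with Sav1 wt -0.069 to 0.079 for Slit2. The interaction gave -0.81 to 0.030 for Slit1, -0.038 to 0.41 for Slit3 and -0.15 to 0.12 for Robo1. The difference between experiments gave -0.37 to 0.38 for Slit1, -0.21 to 0.11 for Robo1 and -0.20 to 0.28 for Robo4, and for Slit1 -0.011 with RLE size factors, -0.014 with DESeq2 and -0.00023 with no filter, against 0.0040. Counts of 1 to 19 per library limit Slit1 and of 25 to 48 limit Robo4 in the second experiment.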
